A study of Rattus norvegicus with 8 samples.

Results

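The immediate early genes are a set of genes whose transcription starts quickly after a stimulus and needs no new protein synthesis. The members were taken by name and not by a cut on their values, though earlier results of these data were known. All 10 had a row among the 27742 rows of the gene table: Fos, Fosb, Jun, Junb, Jund, Egr1, Atf3, Ier2, Nr4a1 and Dusp1. Where a symbol had several rows, the row of highest mean was used, which applied to Jun with 2 rows. RNA came from thoracic aorta of wild-type male Sprague Dawley rats, labelled as 12 weeks old and 180 to 200 g. Nitroglycerin (glyceryl trinitrate, an organic nitrate that dilates vessels) was injected under the skin at 100 mg/kg, 3 times daily over 3 days, for 4 of the libraries. The other 4, the controls, received the ethanol vehicle. Nothing in the labels ties a library to a separate animal, so p-values measure only the spread between these samples.

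Fos and Fosb proteins pair with Jun, Junb or Jund to form the transcription factor AP-1, and Atf3 is a related leucine zipper protein that can pair with Jun proteins. Egr1 is a zinc finger transcription factor and Nr4a1 an orphan nuclear receptor. Dusp1 is a phosphatase that switches off the MAP kinases that induce many of these genes, and Ier2 is a nuclear protein induced alongside them. In the vessel wall the group is known for its response to injury, stretch and growth factors.

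Induction of such genes is known to run through short promoter elements, among them the CArG box bound by serum response factor and the cyclic AMP response element (CRE, TGACGTCA, with the short form TGACG) bound by CREB. Promoters of 7 members were found in RefSeq (build GRCr8), each covering 250 bases before and 50 after the annotated start: Fosb, Junb, Jund, Egr1, Ier2, Nr4a1 and Dusp1. Fos, Jun and Atf3 had no entry. The windows of 4 are printed because these genes were read above 0 in every library and were high in the same libraries. They belong to Egr1 (chr18:26736828-26737127, plus strand), Nr4a1 (chr7:134259888-134260187, plus strand), Dusp1 (chr10:17184603-17184902, plus strand) and Fosb (chr1:88089135-88089434, minus strand). Each reads 5′ to 3′ along its gene, and capitals mark CArG boxes, CREs and short CREs on either strand.
Egr1: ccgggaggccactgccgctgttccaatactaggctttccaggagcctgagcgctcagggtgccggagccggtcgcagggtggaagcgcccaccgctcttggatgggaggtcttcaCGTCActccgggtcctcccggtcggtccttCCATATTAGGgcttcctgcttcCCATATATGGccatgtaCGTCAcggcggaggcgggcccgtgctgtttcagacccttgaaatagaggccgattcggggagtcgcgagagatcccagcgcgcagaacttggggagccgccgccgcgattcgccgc
Nr4a1: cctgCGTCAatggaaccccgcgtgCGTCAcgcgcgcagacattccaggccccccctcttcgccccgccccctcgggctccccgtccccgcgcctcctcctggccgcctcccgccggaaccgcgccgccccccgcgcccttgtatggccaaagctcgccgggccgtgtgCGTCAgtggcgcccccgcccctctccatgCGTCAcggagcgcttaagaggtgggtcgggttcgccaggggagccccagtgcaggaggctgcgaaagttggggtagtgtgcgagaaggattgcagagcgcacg
Dusp1: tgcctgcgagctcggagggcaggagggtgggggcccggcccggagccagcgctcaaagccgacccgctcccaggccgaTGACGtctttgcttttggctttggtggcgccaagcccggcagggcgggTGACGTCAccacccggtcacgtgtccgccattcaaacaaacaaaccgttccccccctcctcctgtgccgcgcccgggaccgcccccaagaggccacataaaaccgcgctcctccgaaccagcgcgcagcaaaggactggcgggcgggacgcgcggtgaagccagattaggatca
Fosb: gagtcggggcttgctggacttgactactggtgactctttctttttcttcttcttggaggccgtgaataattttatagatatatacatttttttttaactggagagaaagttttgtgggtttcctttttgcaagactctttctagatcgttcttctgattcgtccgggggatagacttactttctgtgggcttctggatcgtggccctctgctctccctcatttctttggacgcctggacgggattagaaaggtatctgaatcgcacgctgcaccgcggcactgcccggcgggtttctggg

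Egr1 held 2 CArG boxes, starting at positions -105 and -83 from the gene start, and 2 short CREs. The Nr4a1 window held 4 short CREs and no CArG box. In Dusp1 there was 1 full CRE, which contains 2 of its 3 short forms. Fosb held none of these letters in its window. Across the 7 members a short CRE stood in 6 windows, against 21.2% of 33469 promoters of that length. A full CRE stood in 3 (Jund, Ier2 and Dusp1), against 1.83%, and a CArG box in 1, against 1.64%. The AP-1 site (TGACTCA, either strand) was in none of the 7 and in 4.63% of all promoters. These matches describe letters in a window and not bound sites.

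Values are FPKM, a level per transcript length and library size, so they can be set beside each other between genes. Aligned sequence was 6.77 to 8.86 Gb per library. Groups were compared with limma on log2(FPKM + 1) over the 12977 rows that reached 1 FPKM in 4 or more libraries, with a call at a Benjamini-Hochberg adjusted p under 0.05. Fold changes on that scale understate those of low genes. Because most rows were higher in the nitroglycerin libraries (median log2 difference 0.30), differences are also given after median-of-ratios rescaling, where the median was 0.012. The smooth muscle markers Acta2 and Myh11 read 1061 to 2401 and 108 to 169 FPKM, which shows smooth muscle but not which vessel. One library stood apart in fat: the summed FPKM of 8 adipocyte markers was 116 in nitroglycerin replicate 1 and 9.42 to 24.6 in the other 7. In bulk tissue, fewer cells of a type and less RNA per cell cannot be told apart.

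Nitroglycerin did not separate the immediate early genes from controls by the test. Of the 7 members that passed the filter, limma called 0 as deposited and 0 after rescaling, with adjusted p from 0.206 to 0.876 and from 0.581 to 0.998. The share called among all tested rows was 1.35% as deposited (1.29% higher and 0.0616% lower with nitroglycerin) and 0.131% after rescaling (0.0308% and 0.1%). At an unadjusted p under 0.05 the members also numbered 0, where 35.2% of all tested rows passed as deposited and 11.9% after rescaling. Both groups overlapped in all 10 members, while 24.6% of tested rows had no overlap as deposited and 8.24% after rescaling. The spread within each group was wide. In the 6 members never listed at 0, the high values fell in the same 3 libraries, control replicate 2 and nitroglycerin replicates 1 and 3.

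**Figure D1:**
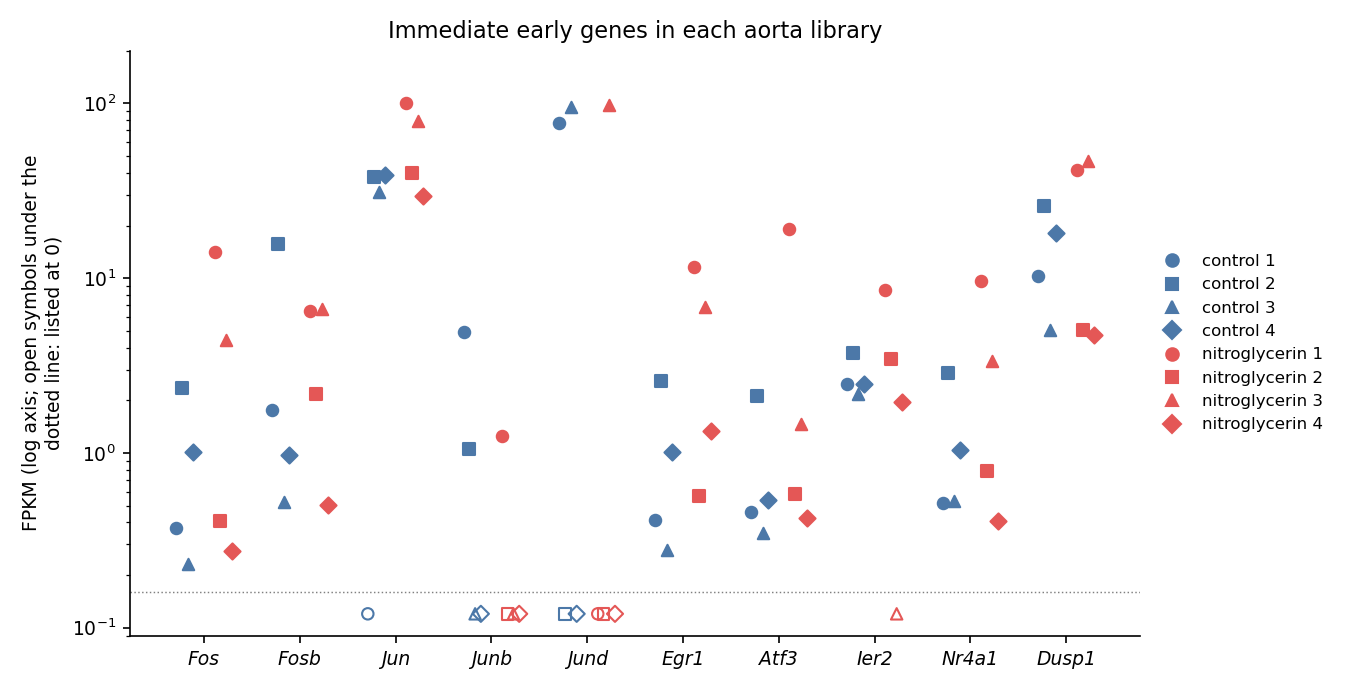
FPKM of each immediate early gene in every library on a log axis, with colour for the group and symbol shape for the replicate number. Open symbols under the dotted line are values listed at 0. Fos, Egr1, Atf3 and Nr4a1 sit highest in nitroglycerin replicate 1, and control replicate 2 lies above the other controls in each of them.

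Fos, the AP-1 subunit most often used as a marker of recent stimulation, read 0.372, 2.34, 0.232 and 1.01 FPKM in control replicates 1 to 4. In nitroglycerin replicates 1 to 4 it read 14.1, 0.405, 4.41 and 0.274 FPKM. Nitroglycerin replicates 1 and 3 stood above every control, and replicates 2 and 4 within the control range. The highest library was 60.9-fold above the lowest. Group means were 0.990 ± 0.964 and 4.80 ± 6.49 FPKM (SD, n = 4 each), a log2 difference of 0.92 (SE 0.75, 95% interval -0.78 to 2.62, limma adjusted p = 0.379). Rescaled, the difference was 0.74 (adjusted p = 0.739). Without nitroglycerin replicate 1, the library with the adipocyte markers, it was 0.21 as deposited. With the adipocyte marker score (mean log2(FPKM + 1)) as a covariate it was 0.16. That score was 3.61 in nitroglycerin replicate 1 and 0.745 to 1.58 elsewhere. It mostly marks that library, so fat and that library cannot be told apart here.

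Fosb, a second Fos family subunit, had another leading library. It read 1.77, 15.7, 0.520 and 0.966 FPKM in the controls and 6.46, 2.18, 6.67 and 0.505 with nitroglycerin. Control replicate 2 was the highest of all 8, and the lowest library of each group was near the other. The log2 difference was 0.25 (SE 0.79, 95% interval -1.55 to 2.04, limma adjusted p = 0.831), and 0.0049 after rescaling. Without control replicate 2 it was 1.01.

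Jun, the main partner of Fos in AP-1, was the most abundant member among those above 0 in at least 7 libraries. Its annotated row read 38.1, 31.2 and 39.1 FPKM in control replicates 2 to 4 and was listed at 0 in control replicate 1. The nitroglycerin libraries read 101, 40.0, 79.1 and 29.5 FPKM. Replicates 1 and 3 were again the high ones, and replicate 4 lay below the 3 controls with a value. With the listed 0 kept, the log2 difference was 1.91 (SE 1.12, limma adjusted p = 0.238). With it left out as missing the difference was 0.61 (SE 0.41, 95% interval -0.32 to 1.55, adjusted p = 0.294), so 1 library decided most of that value. With both Jun rows summed it was 1.51 and not called.

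A second row carrying the symbol Jun is an assembled long non-coding transcript on the opposite strand (class code x in the lncRNA table). It lies on chromosome 5, 114014128 to 114033556, plus strand, with 6 exons and 10579 bases, by the coordinates of that table. Its coding-potential scores were -1.13 (CPC) and -0.0037 (CNCI). It read 2.39, 4.06, 3.39 and 2.96 FPKM in the controls and 3.58, 5.26, 3.90 and 5.28 with nitroglycerin. The row was above 0 in control replicate 1, where annotated Jun was listed at 0, and its groups overlapped. The log2 difference was 0.39 (limma adjusted p = 0.127). Rescaled, it was 0.089 (limma adjusted p = 0.839). Strand use in counting is not given in the sources used here, so reads of overlapping parts cannot be assigned to either strand.

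Junb and Jund, the other Jun family subunits, fell under the filter. Junb was listed at 0 in 5 libraries and read 4.93 and 1.05 FPKM in control replicates 1 and 2 and 1.25 in nitroglycerin replicate 1. Jund was listed at 0 in 5 libraries as well and read 77.1, 95.4 and 98.2 FPKM in control replicates 1 and 3 and nitroglycerin replicate 3. Two-sided exact permutation tests with the zeros kept gave p = 0.714 for Junb and p = 1 for Jund (n = 4 per group). An exact 0 can be a failed estimate, and Jund moved between 0 and the level of the most abundant members with no value between. Such values were not rare in the table. Of 1560 rows with a mean of at least 10 FPKM, 3.78% held at least 1 exact 0. Among the other members, Jun and Ier2 each had 1.

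Atf3, a stress-induced leucine zipper factor, read 0.462, 2.11, 0.348 and 0.539 FPKM in the controls. With nitroglycerin it read 19.0, 0.585, 1.46 and 0.424 FPKM. Nitroglycerin replicate 1 stood far above the rest, and control replicate 2 was second. It reached 1 FPKM in 3 libraries and so fell under the filter. A two-sided exact permutation test over the 70 splits gave p = 0.514 (n = 4 per group). The log2 difference was 0.89, and 0.015 without nitroglycerin replicate 1.

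Egr1 had the lowest adjusted p of the tested members. It read 0.412, 2.57, 0.278 and 1.02 FPKM in the controls and 11.6, 0.570, 6.87 and 1.34 with nitroglycerin. Replicates 1 and 3 of the nitroglycerin group stood above every control, and replicates 2 and 4 lay among them. The log2 difference was 1.20 (SE 0.65, 95% interval -0.27 to 2.67, limma adjusted p = 0.206). Rescaled, it was 0.99 (limma adjusted p = 0.581). Without nitroglycerin replicate 1 it was 0.69. With the adipocyte score as a covariate, which mostly marks that same library, it was 0.67.

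Nr4a1 followed Fos closely. It read 0.518, 2.88, 0.527 and 1.04 FPKM in the controls and 9.63, 0.784, 3.36 and 0.406 with nitroglycerin. The order of high and low libraries matched that of Fos in the top 5 places. Its log2 difference was 0.67 (SE 0.61, 95% interval -0.72 to 2.05, limma adjusted p = 0.432), and 0.10 without nitroglycerin replicate 1.

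Dusp1 was the one member at 1 FPKM or more in all 8 libraries. It read 10.2, 25.7, 5.02 and 18.1 FPKM in the controls and 41.4, 5.03, 46.9 and 4.72 with nitroglycerin. The nitroglycerin libraries fell into a high pair above every control and a low pair near the lowest control. Group means were 14.8 ± 9.07 and 24.5 ± 22.8 FPKM (SD, n = 4 each). On the log2 scale the difference was 0.26 (SE 0.80, 95% interval -1.55 to 2.06, limma adjusted p = 0.826), and -0.097 after rescaling.

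Ier2 read 2.48, 3.71, 2.17 and 2.48 FPKM in the controls. With nitroglycerin it read 8.58, 3.44 and 1.97 FPKM in replicates 1, 2 and 4 and was listed at 0 in replicate 3. Replicate 1 was the highest and control replicate 2 the next. The log2 difference was -0.13 with the listed 0 kept (SE 0.57, limma adjusted p = 0.876) and 0.45 with it left out (SE 0.36, adjusted p = 0.375). Its row holds an assembled transcript only.

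**Figure D2:**
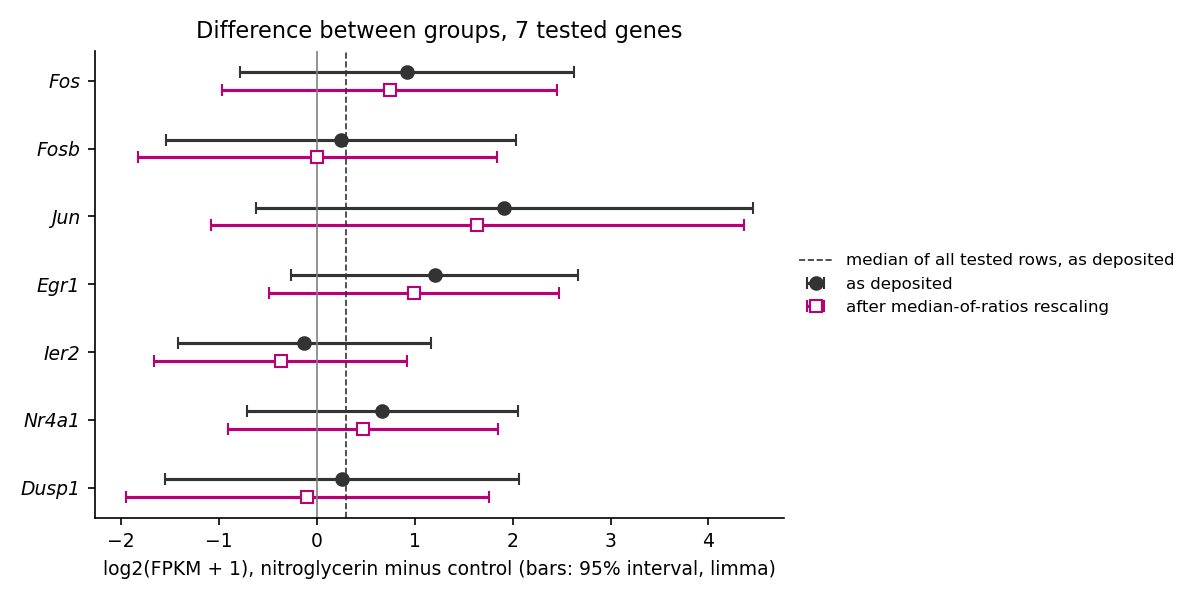
Log2 difference, nitroglycerin minus control, of the 7 tested members with 95% limma intervals, as deposited (filled circles) and after rescaling (open squares). The dashed line is the median of all tested rows as deposited, 0.30. Every interval includes 0, and that of Jun, which keeps its listed 0, is the widest.

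The spread within groups was among the largest in the table. The pooled within-group SD of log2(FPKM + 1) was 1.29 for Fos, 1.36 for Fosb, 1.11 for Egr1, 1.04 for Nr4a1 and 1.37 for Dusp1. The median over the 12977 tested rows was 0.24, and each of these 5 members exceeded at least 98.0% of the rows. Against the rows within 2-fold of its own mean, Fos exceeded 99.4% of 7581 and Dusp1 97.3% of 1237. Jun and Ier2 had SDs of 1.93 and 0.98 with their listed zeros kept.

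The members above 0 in every library were 6: Fos, Fosb, Egr1, Atf3, Nr4a1 and Dusp1. Control replicate 2 and nitroglycerin replicates 1 and 3 filled the top 3 places in all 6. Nitroglycerin replicate 1 was the highest in 4 of them, nitroglycerin replicate 3 in Dusp1 and control replicate 2 in Fosb. At the other end, control replicate 3 and nitroglycerin replicate 4 were each the lowest library in 3. Among all 11727 tested rows above 0 in every library, those same 3 libraries filled the top 3 places in 4.40% as deposited and 1.94% after rescaling. Of the 6 members, 5 were among those tested rows and Atf3 was not. After rescaling the same 3 libraries led 6 of 6. These 3 libraries were singled out after their values were seen.

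**Figure D3:**
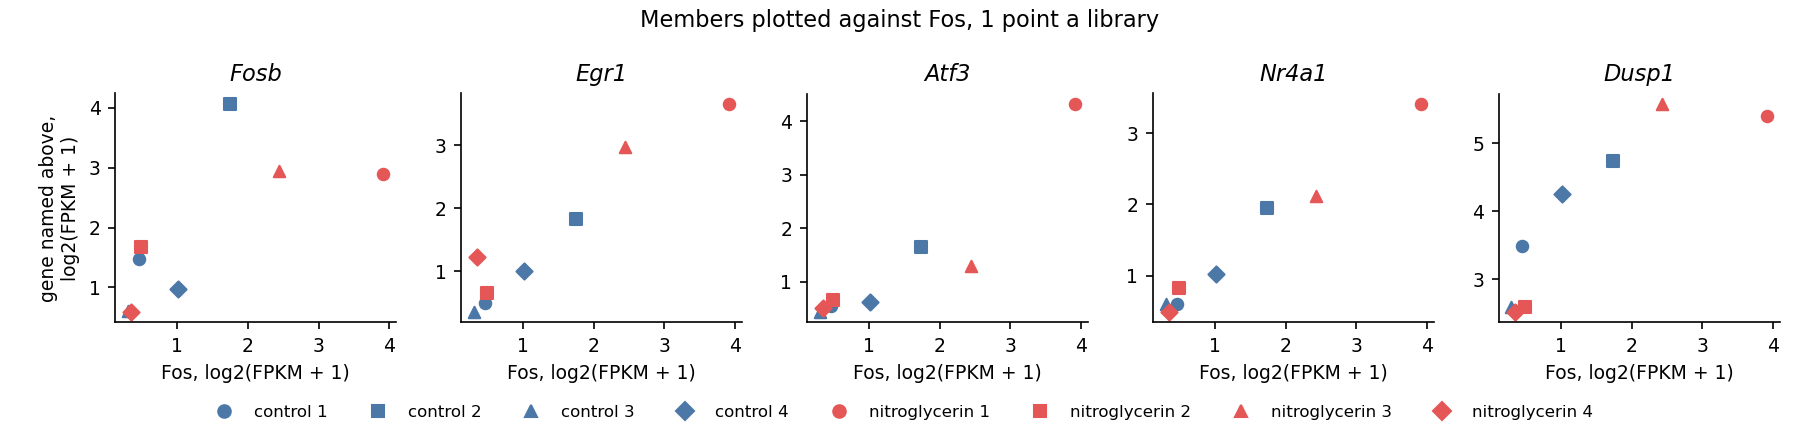
Log2(FPKM + 1) of 5 members against that of Fos, 1 point a library, colour for the group and shape for the replicate number. Nr4a1 and Egr1 lie closest to a line, and Fosb departs in control replicate 2, at 15.7 FPKM.

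The 6 members were compared in all 15 pairs across the 8 libraries on the log2 scale. Pearson's r ran from 0.60 to 0.99 (median 0.85) and Spearman's rho from 0.60 to 0.95. By exact permutation over the 40320 pairings, 12 of 15 passed by r and 12 of 15 by rho after Benjamini-Hochberg adjustment over the 15. Values were as deposited. The share passing among pairs of other genes was not measured, so whether the count is particular to the members cannot be said. Fos and Nr4a1 were the closest pair (r = 0.99, exact permutation p = 9.92e-05, adjusted p = 0.00149, rho = 0.93 with exact permutation p = 0.00223 and adjusted p = 0.0112). Fosb and Atf3 had the lowest r (0.60, exact permutation p = 0.0861, adjusted p = 0.0861, with rho = 0.88). Without the 2 libraries farthest from the median of the first gene of each pair, r was 0.63 to 0.98. With each group centred on its own mean, r was 0.61 to 0.99, a description with no test.

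Markers of other cells were set beside this order. Nitroglycerin replicate 1 had the most adipocyte signal, with Adipoq at 15.0 FPKM against 0.0965 to 1.80 elsewhere. In the other libraries with high immediate early genes, the adipocyte sum was 18.5 FPKM (control replicate 2) and 14.7 (nitroglycerin replicate 3). Both lay inside the range of the remaining 5, and a part of fat in the order was not tested. Summed endothelial markers were 57.2, 69.6 and 72.5 FPKM in the 3 high libraries (control replicate 2, nitroglycerin replicates 1 and 3) and 35.2 to 71.0 in the others. Macrophage markers summed to 22.0, 31.0 and 38.6 FPKM in them and 16.3 to 27.8 in the others. As deposited, both sums were higher in the nitroglycerin group. Endothelial sums were 62.6 to 72.5 against 35.2 to 58.7 FPKM, and macrophage sums 22.8 to 38.6 against 16.3 to 22.0. Most rows were higher in those libraries, and the sums were not rescaled. With rescaling, the median log2 difference of the tested markers went from 0.58 to 0.22 (endothelial) and from 0.57 to 0.23 (macrophage). The fibroblast sum was lower with nitroglycerin, at 1403 to 1526 against 1698 to 2469 FPKM, without overlap. Most of that sum was Col1a1, with means of 1779 FPKM in the controls and 1152 with nitroglycerin. Of the 5 fibroblast markers, 3 had a positive log2 difference, and the median was 0.39, and 0.019 after rescaling. The skeletal muscle sum was 19.9 to 28.0 against 27.8 to 38.5 FPKM, with overlap. Smooth muscle markers summed to 1267 to 2658 against 2033 to 2708 FPKM, also with overlap, and were lowest in nitroglycerin replicate 1. The median log2 difference of the 7 tested smooth muscle markers was -0.23, and -0.62 after rescaling. Of these, 3 were above 0 as deposited and 1 after rescaling. Among single markers limma called Eng and Esam (2 of 7 endothelial) and Cd163 (1 of 5 macrophage) as higher with nitroglycerin, and the muscle enzyme gene Ckm (1 of 6 skeletal muscle) as lower. It called 0 of 7 smooth muscle, 0 of 5 fibroblast and 0 of 3 adipocyte markers. After rescaling only Ckm of these 4 was called (limma adjusted p = 0.0351). T and B cell markers summed to at most 0.389 FPKM in any library. Their part in the order of the libraries was not tested.

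**Figure D4:**
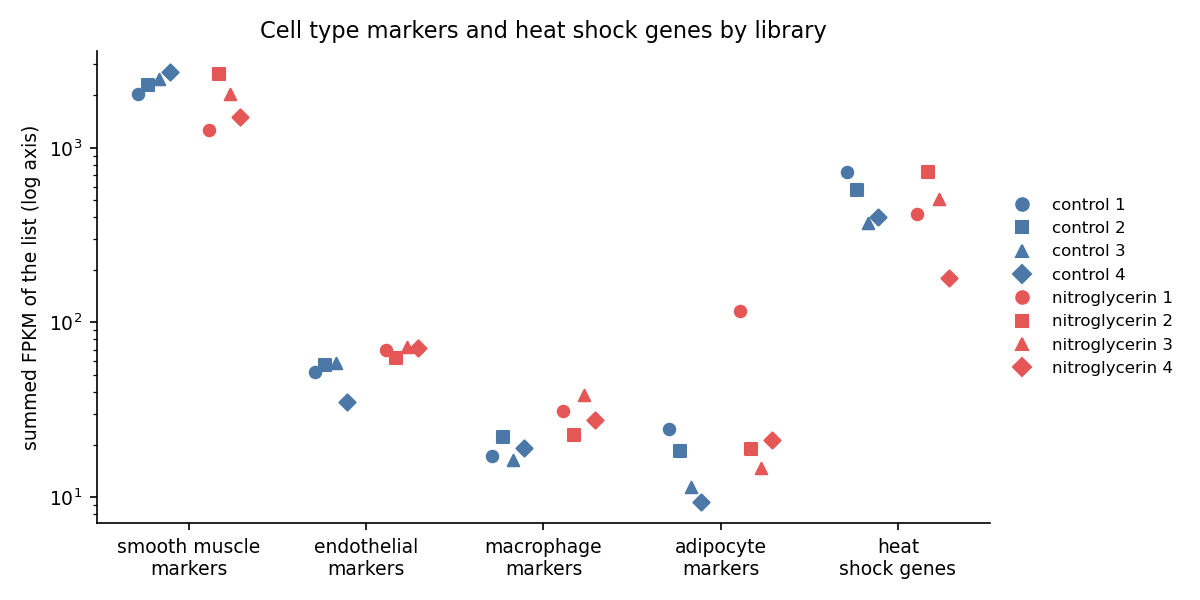
Summed FPKM of marker lists and heat shock genes in each library on a log axis, colour for the group and shape for the replicate number. The adipocyte sum of nitroglycerin replicate 1, at 116 FPKM, lies far above the other 7 libraries.

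A wider list of 46 other immediate early genes had 42 in the table and 32 past the filter. Of these 32, limma called 1 as higher with nitroglycerin and 0 as lower, and none after rescaling. Before adjustment, p was under 0.05 for 6 with a positive difference and 0 with a negative one. Over all 12977 tested rows the same counts were 4431 and 133, or 35.2% in either direction. Rescaled, the list had 3 and 2, and all tested rows 714 and 836 (11.9% in either direction). Their median log2 difference was 0.49, against 0.30 for all tested rows, and 0.18 against 0.012 after rescaling.

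The gene called was Maff, a small Maf protein that lacks an activation domain. It read 5.20, 0.477, 0.588 and 0.524 FPKM in the controls and 11.9, 11.7, 16.7 and 6.88 with nitroglycerin. All 4 nitroglycerin libraries stood above all 4 controls, so its layout was unlike that of the members. The log2 difference was 2.50 (SE 0.47, limma adjusted p = 0.0492). Rescaled, it was 2.19 (limma adjusted p = 0.183). The call was lost without any 1 library other than control replicate 1, at an adjusted p of up to 0.136, and the difference stayed between 2.32 and 3.01. It was also lost at pseudocount 0.1, with no filter, without the trend, after quantile normalization, and with the adipocyte covariate or the replicate block (limma adjusted p = 0.0556 to 0.205).

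Next by p were Irf1, Socs3, Fosl2, Zfp36 and Zfp36l1, none of which passed in this fit. Irf1, an interferon regulatory factor, read 2.88 to 4.20 FPKM in the controls and 5.76 to 8.46 with nitroglycerin, without overlap (log2 difference 0.75, limma adjusted p = 0.0543, and 0.43 with adjusted p = 0.317 after rescaling). Socs3, a feedback inhibitor of cytokine signalling, read 0.480, 2.35, 0.318 and 0.714 FPKM in the controls and 7.19, 2.71, 7.18 and 2.27 with nitroglycerin (log2 difference 1.55, adjusted p = 0.0615, and 1.32 with adjusted p = 0.246 rescaled). Its high nitroglycerin libraries were again replicates 1 and 3. Fosl2, a Fos family subunit, read 3.37 to 4.72 and 4.93 to 8.44 FPKM (log2 difference 0.57, adjusted p = 0.0696, and 0.25 with adjusted p = 0.544 rescaled). Zfp36, which destabilises cytokine messages, differed by 1.21 on the log2 scale (limma adjusted p = 0.135), and by 0.84 once rescaled. Zfp36l1, of the same family, differed by 0.68 (limma adjusted p = 0.139), and by 0.33 once rescaled. Irf1 and Fosl2 were called with array weights or with 1 FPKM required in all 8 libraries (limma adjusted p = 0.0286 to 0.0490), and Socs3 with array weights (0.0286). Those settings called many rows, 1936 of 12977 and 1178 of 9229, against 175 of 12977 in the main fit.

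**Figure D5:**
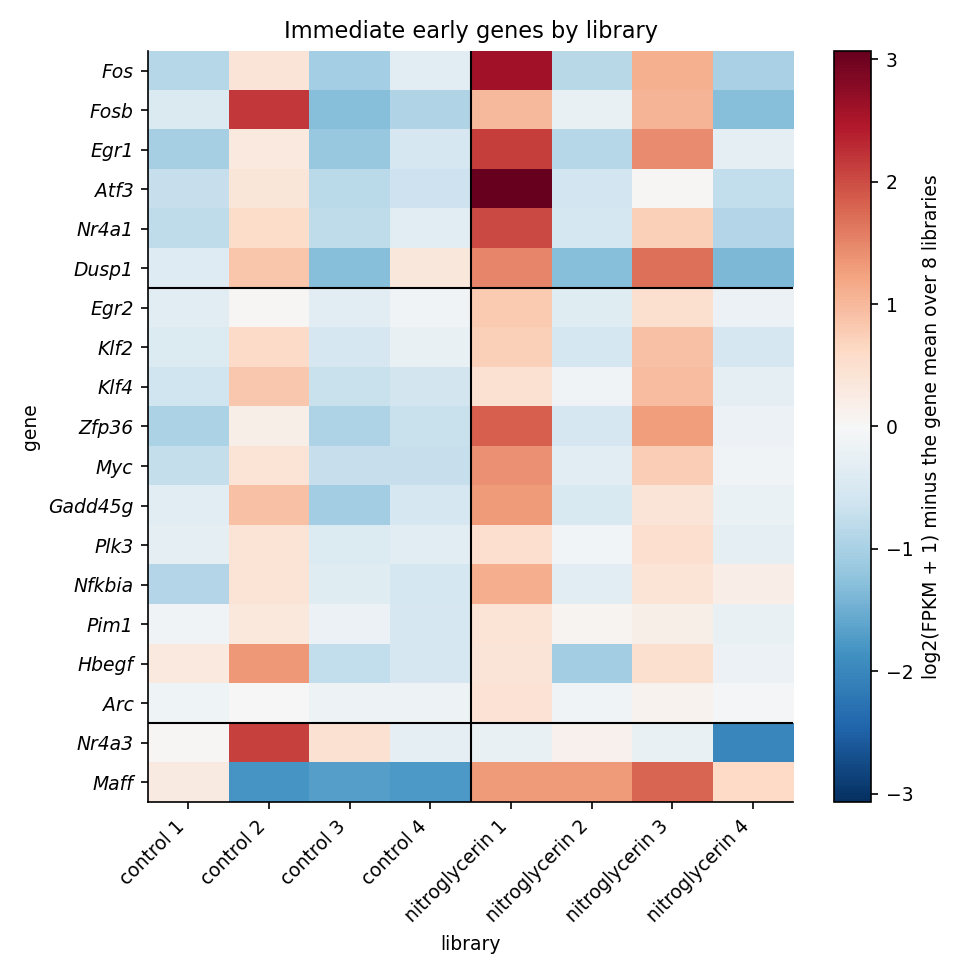
Log2(FPKM + 1) minus the gene's mean over the 8 libraries. The 6 members above 0 throughout are on top, the 11 other immediate early genes picked because the same 3 libraries led them are in the middle, and Nr4a3 and Maff are at the bottom. Control 2, nitroglycerin 1 and nitroglycerin 3 are the 3 highest columns in the upper blocks. In the bottom block Nr4a3 is highest in control 2 alone, and Maff is low in control 2 and high in all 4 nitroglycerin libraries.

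Of the 38 genes on that list above 0 in every library, 11 had the same 3 leading libraries (28.9%, and 26.3% after rescaling). Of the 31 that also passed the filter there were 8 (25.8%, and 22.6% after rescaling), against 4.40% and 1.94% of all tested rows above 0 throughout. They were Egr2, Klf2, Klf4, Zfp36, Myc, Gadd45g, Plk3, Nfkbia, Pim1, Hbegf and Arc, and they were selected by that order. Zfp36 read 11.8, 27.4, 12.1 and 14.5 FPKM in the controls and 87.7, 16.6, 60.0 and 21.1 with nitroglycerin. Klf4, a zinc finger factor of smooth muscle and endothelium, read 4.36, 13.5, 4.08 and 4.53 FPKM in the controls and 10.3, 6.57, 14.8 and 5.79 with nitroglycerin. In both genes the 2 low nitroglycerin libraries lay below control replicate 2.

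Other immediate early genes did not all share the order, by examples chosen after their values were seen. Nr4a3, of the same receptor family as Nr4a1, read 4.34, 21.3, 6.22 and 3.30 FPKM in the controls and 3.43, 4.76, 3.48 and 0.309 with nitroglycerin. Control replicate 2 was high as in Nr4a1, but nitroglycerin replicates 1 and 3 were not. Its log2 difference was -1.16 (limma adjusted p = 0.187), and -1.43 once rescaled. Btg2, an antiproliferative gene, read 62.7 and 11.8 FPKM in nitroglycerin replicates 1 and 3 and 1.03 to 3.02 in the other 6 libraries. There control replicate 2, at 1.52 FPKM, was not high.

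Tested rows were also ranked by likeness to the mean profile of the 7 tested members, as Pearson's r over the 8 libraries with each group centred. This is a description, and r over all 12977 rows had a median of 0.24 and a 95th percentile of 0.73. The 8 non-members of highest r, at 0.96 to 0.98, were Atp8a1, Ogfod3, Sh3bp1, Trim65, Ablim1, Ywhaz, Nynrin and Wfdc2. Their range was narrow: Ywhaz, a 14-3-3 protein gene, read 8.16 to 17.7 FPKM. With the 5 tested members that were never at 0 as the reference, the leading genes included Ablim1, Ogfod3, Zfp36, Thbd, Wfdc2, Klf2 and Trim65. Thbd was itself listed at 0 in control replicate 3 and nitroglycerin replicates 2 and 4. Ablim1, which encodes an actin-binding LIM protein, had the highest r of the leading genes (0.98). It read 0.924, 2.14, 0.897 and 1.17 FPKM in the controls and 2.72, 1.18, 2.31 and 0.824 with nitroglycerin. The same 3 libraries as in the members were its highest, and the groups overlapped.

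Genes upstream of the members had summed levels of 96.2 to 126 FPKM in the controls and 113 to 124 with nitroglycerin. Of 24 listed kinases and factors of the MAP kinase, serum response factor and CREB routes, 20 were tested, and limma called 0 under either scaling. Unadjusted, 4 positive and 1 negative differences had p under 0.05. After rescaling these were 0 and 4. Over all 12977 tested rows there were 4431 positive and 133 negative as deposited, and 714 and 836 after rescaling. Their median log2 difference was 0.23, and -0.058 after rescaling. Those of lowest p included Elk1, Prkaca, Mapk7, Mapk9 and Map2k2. Elk1, a partner of serum response factor, read 1.60 to 2.38 and 2.42 to 3.45 FPKM, without overlap (log2 difference 0.47, limma adjusted p = 0.0669, and 0.19 with adjusted p = 0.543 after rescaling). Mapk7, the kinase ERK5, read 11.2 to 17.4 and 7.96 to 13.8 FPKM (log2 difference -0.57, adjusted p = 0.0926, and -0.93 with adjusted p = 0.162 rescaled). Serum response factor itself, Srf, read 3.31 to 7.91 FPKM in the controls and 2.43 to 5.35 with nitroglycerin.

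Among 12 leucine zipper factors outside the members that can join or oppose AP-1 pairs, 8 were tested and limma called 0 under either scaling. Unadjusted, 3 positive and 0 negative differences had p under 0.05, and 1 and 0 once rescaled. In either direction 35.2% of all tested rows passed as deposited, mostly positive, and 11.9% once rescaled. Their median log2 difference was 0.33, and 0.056 after rescaling. By lowest p they were Nfe2l2, Atf2, Atf7, Jdp2, Mafg and Maf. Nfe2l2, the oxidative stress factor NRF2, read 6.18 to 8.45 and 9.42 to 13.1 FPKM, without overlap (log2 difference 0.61, limma adjusted p = 0.0581, and 0.26 with adjusted p = 0.311 after rescaling). Atf2, a Jun partner, read 7.36 to 9.43 and 9.71 to 13.6 FPKM (log2 difference 0.52, adjusted p = 0.0676, and 0.16 with adjusted p = 0.562 rescaled).

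Heat shock genes, another rapidly induced group, had control replicate 2 and nitroglycerin replicates 1 and 3 on top in 1 of the 8 genes never at 0, and in 0 after rescaling. Of 10 listed, 8 were tested, limma called 0 under either scaling, and 0 passed at an unadjusted p under 0.05. Of all tested rows, 35.2% passed that threshold as deposited and 11.9% after rescaling. The median log2 difference was 0.042, and -0.30 after rescaling. Their summed FPKM was 730, 573, 369 and 400 in the controls and 416, 725, 509 and 180 with nitroglycerin. Of the sum in control replicate 1, 221 FPKM came from Hspa1b, which was listed at 0 in 5 libraries. Hsp90aa1 was highest in nitroglycerin replicate 2 at 121 FPKM, where Fos read 0.405 FPKM. By lowest p the genes were Hspe1, Hspd1, Hspb1, Bag3, Hspa8 and Hsp90aa1, with log2 differences from -0.87 to 0.45.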

How the data were processed

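Sequencing of ribosomal-RNA-depleted total RNA gave 8 libraries. Named without roles in the submitters' processing notes are StringTie 1.3.0, HISAT2 2.0 and Bowtie 0.12.2, and the builds Rnor_6.0 and mm8. The authors deposited FPKM per gene, and per lncRNA transcript FPKM, coverage per base (a signal not scaled for depth) and coding-potential scores. The ratio of coverage to FPKM, constant within a library, was taken as aligned gigabases. Read counts were not used here, and no interval from counting error is given.

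Values were tested with limma 3.58.1 in R 4.3.3 (trend, Benjamini-Hochberg over all 12977 tested rows), and single values by two-sided exact permutation over 70 splits, where the smallest p is 0.0286. Correlations used exact permutation over 40320 pairings. The limma fit was tested on simulated data with normal noise and added shifts. Figures were made in matplotlib 3.10.9 under Python 3.11.15. Members and lists were chosen with earlier results of these data known. Named genes were all members and, in each other list, the 6 of lowest p plus any called, of which 1 is not reported here. Marker lists are given as sums, and other names were chosen after their values were seen. Promoters came from RefSeq.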

Additional observations from a re-analysis of the deposited data

Results flagged for a closer look

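Of 32 groups of 4 libraries examined, covering the members and the 6 other immediate early genes of lowest p, 6 (18.8%) held a library set well apart from its group, and by chance about 1 in 20 would if values were normal, which raw FPKM need not be. In Junb and Jund the gap rests on values listed at 0. Control replicate 2 had 15.7 FPKM of Fosb against 0.520 to 1.77 in the other controls, and 2.11 FPKM of Atf3 against 0.348 to 0.539. Nitroglycerin replicate 1 had 19.0 FPKM of Atf3 against 0.424 to 1.46 in the other nitroglycerin libraries. It also had 1.25 FPKM of Junb, which was listed at 0 in the other 3. Nitroglycerin replicate 3 had 98.2 FPKM of Jund, listed at 0 in the other 3. Control replicate 1 had 5.20 FPKM of Maff against 0.477 to 0.588. The 3 flags of Fosb and Atf3 fell in libraries where the other members never at 0 were also high.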

How the results depend on the processing

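Limma called 0 members in each alternative run, over the members it tested: 7 in most, 10 with no filter, and 1 (Dusp1) with 1 FPKM required in all 8 libraries. In each, at most 1 had an unadjusted p under 0.05 (Egr1, with array weights or without nitroglycerin replicate 2 under both scalings). The treatment of zeros was chosen after seeing the data. The 175 genes called as deposited became 26 with no filter, 7 at pseudocount 0.1, 1178 with at least 1 FPKM in all 8 libraries, 17 after rescaling (also with the zeros of Jun and Ier2 as missing), 15 after quantile normalization, 41 without the trend, 1936 with array weights and 9 with the adipocyte covariate. Leaving out 1 library gave 5 to 284, and 1 to 24 after rescaling. With the replicate number as a block limma called 0 genes, and 0 after rescaling (4037 and 1611 at an unadjusted p under 0.05). Whether the numbers pair the libraries cannot be decided from these values. Same-numbered deviations correlated at 0.13, -0.011, -0.012 and 0.12, and not every library correlated best with its own number. The values of 0.13 and 0.12 were the highest of any control and nitroglycerin pair, with 0.087 next.

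Calls gained with array weights were Irf1, Socs3, Fosl2, Elk1, Prkaca, Nfe2l2 and Atf2 (limma adjusted p = 0.0277 to 0.0447). With 1 FPKM in all 8 libraries they were Irf1, Fosl2, Elk1, Nfe2l2 and Atf2 (0.0347 to 0.0490), and without nitroglycerin replicate 2 Nfe2l2 (0.0497). Over all tested rows these settings called 1936 of 12977, 1178 of 9229 and 284 of 12977.

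The differences of 5 members changed direction, and the cause was not tested. Fosb was at -0.052 after quantile normalization, -0.17 with the covariate, and -0.41 to 1.01 with a library left out. Dusp1 was at -0.097 after rescaling (also with the block or the zeros as missing), -0.023 after quantile normalization, -0.19 with the covariate, and -0.59 to 0.76 with a library left out. Ier2 was at 0.45 with zeros as missing and 0.17 with rescaling too, and -0.84 to 0.45 with a library left out. Atf3 was at -0.13 to 1.29 and Nr4a1 at -0.070 to 1.07 with a library left out. Of other named genes, after rescaling Mapk9 was at -0.0085 and Hspd1 at -0.046 (also with the block or zeros as missing), and with the covariate Bag3 was at -0.030 and Hsp90aa1 at 0.093. With a library left out, ranges were -0.025 to 0.46 for Prkaca, -0.038 to 0.38 for Mapk9, -0.090 to 0.44 for Map2k2, -0.15 to 0.56 for Jdp2, -0.16 to 0.66 for Maf, -0.048 to 0.59 for Hspe1, -0.27 to 0.45 for Hspd1, -1.68 to 0.018 for Hspb1, -0.23 to 0.63 for Bag3 and -1.23 to 0.017 for Hsp90aa1. Members near 1 FPKM are limited by depth, which is known only as aligned gigabases.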
